A study of Mus musculus with 2 samples.

Results

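The Ms4a genes encode small proteins that cross the membrane several times and are made mainly in leukocytes. Described here are the rows of the feature table with the symbols Ms4a1, Ms4a4a, Ms4a4b, Ms4a4c, Ms4a6b, Ms4a6c, Ms4a6d and Ms4a7, taken by name and not by level. Each symbol was found once, so the members are 8 of the 19 Ms4a genes and of the 31053 genes in the table. They were followed in CD45+ leukocytes sorted from tumours of C57BL/6 mice, with 1 droplet library labelled WT and 1 labelled Ythdf2 cKO. The second label stands for a conditional knockout of Ythdf2, a cytoplasmic reader of the m6A mark that promotes decay of marked RNA. RNA was captured from the 5′ end and counted as unique molecular identifiers (UMIs). Neither the tumour model, the driver of the conditional deletion, the age of the mice nor their number per library is stated in those labels. Both labels give the same strain and CD45 sort, and no agent is named in either label.

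The best known member is Ms4a1, which encodes CD20, a surface protein of B cells that works beside the B cell receptor. Ms4a4b is a T and NK cell gene whose protein restrains T cell proliferation and binds the costimulatory receptor GITR (Tnfrsf18). Ms4a4a and Ms4a7 are known from macrophages, where the MS4A4A protein associates with the fungal sensor Dectin-1, and the human MS4A4A-MS4A6A locus is linked to levels of soluble TREM2. The Ms4a4 and Ms4a6 genes of the mouse arose by repeated duplication, so that several copies have a single human counterpart or none.

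All 8 members lie on chromosome 19 within 355.2 kb (GRCm38, GENCODE vM21), with 3 other Ms4a genes between them. On the minus strand were Ms4a1 (11249675 to 11266241), Ms4a7 (11321039 to 11336146) and Ms4a6d (11586604 to 11604849). The remaining members lie on the plus strand in the order Ms4a4a (11375523 to 11392790), Ms4a4c (11404770 to 11427246), Ms4a4b (11443553 to 11467055), Ms4a6c (11469366 to 11482192) and Ms4a6b (11516512 to 11531256). Near-identical copies can share reads. Of 116 pairs of Ms4a genes with a member in them, 5 shared at least 1 exact stretch of 50 bases between their transcripts, and 135 such stretches (7.73% of those of Ms4a4c) were common to Ms4a4c and Ms4a4b. Ms4a6c and Ms4a6b shared 117 (5.85% of those of Ms4a6c), and Ms4a6b and Ms4a6d shared 40. With genes outside the members, Ms4a4b shared 63 with Ms4a2, and Ms4a4c shared 8 with Ms4a4d. Reads from those stretches cannot be assigned to 1 copy, and the labels do not say how they were counted.

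Upstream sequence is shown for the 2 pairs of copies whose letters were most alike, because 1 pair is used by different cells and the other by partly the same cells. RefSeq promoter windows (GRCm38.p6, the 250 bases before the annotated start) were found for 6 members. Among their 15 pairs, Ms4a6c and Ms4a6b aligned over 170 bases with 152 identical (89.4%), and Ms4a4c and Ms4a4b over 127 bases with 114 identical (89.8%). The third pair in that order aligned over 16 bases. Capitals mark runs of at least 10 identical aligned bases within a pair, all on the plus strand. Each printed sequence stops before the first base that GENCODE places in an exon, while the alignments used the whole windows. For Ms4a6b the last 106 bases were left out, and its aligned part ran from 248 to 71 bases before the start. Part of the alignment of Ms4a6c and Ms4a6b is therefore not printed for Ms4a6b.
Ms4a4c, chr19:11407411-11407660: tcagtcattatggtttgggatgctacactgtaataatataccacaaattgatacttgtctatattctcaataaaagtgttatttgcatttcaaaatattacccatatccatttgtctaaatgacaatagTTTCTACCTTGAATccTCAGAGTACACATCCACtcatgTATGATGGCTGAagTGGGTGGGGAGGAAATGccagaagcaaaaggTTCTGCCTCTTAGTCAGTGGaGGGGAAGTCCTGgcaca
Ms4a4b, chr19:11443308-11443552: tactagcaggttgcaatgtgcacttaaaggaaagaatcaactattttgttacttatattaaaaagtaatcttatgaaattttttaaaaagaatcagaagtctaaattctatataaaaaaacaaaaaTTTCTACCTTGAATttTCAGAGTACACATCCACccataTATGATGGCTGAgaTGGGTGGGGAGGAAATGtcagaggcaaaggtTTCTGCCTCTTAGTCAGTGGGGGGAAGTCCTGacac
Ms4a6c, chr19:11469118-11469365: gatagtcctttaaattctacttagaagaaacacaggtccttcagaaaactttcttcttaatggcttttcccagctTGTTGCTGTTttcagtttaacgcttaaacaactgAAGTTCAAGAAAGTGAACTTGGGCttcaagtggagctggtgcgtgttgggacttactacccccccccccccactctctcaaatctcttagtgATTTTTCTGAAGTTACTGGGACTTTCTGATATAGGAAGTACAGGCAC
Ms4a6b, chr19:11518309-11518452: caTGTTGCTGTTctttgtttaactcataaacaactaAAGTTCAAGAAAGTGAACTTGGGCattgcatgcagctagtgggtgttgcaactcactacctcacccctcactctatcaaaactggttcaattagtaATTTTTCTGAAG
The Ms4a4c and Ms4a6b windows lie inside the span of the GENCODE gene, downstream of an earlier annotated start.

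Both strands of each window were searched for 4 short motifs. GAGGAA, the core bound by the myeloid and B cell factor PU.1, was found once in Ms4a4c (61 bases before the start) and once in Ms4a4b (64 bases), and 23.25% of all 32851 windows of this length held it. GAAANNGAA, a short form of the element bound by interferon regulatory factors, was found in Ms4a6c, Ms4a6b and both Ms4a7 windows, against 7.13% of all windows. The same run with a further A at its end (2.98% of all windows) was found in 0 of the 7 member windows. GGAAGT, an ETS core found in 19.74% of all windows, was present in Ms4a4c, Ms4a4b, Ms4a6c, Ms4a6b and 1 Ms4a7 window. Both Ms4a6b matches (85 and 43 bases before the start) lie in the bases left out of its printed sequence. A match is a description of letters, and no match says only that these letters are not in this window.

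The libraries held 14404 barcodes with 128952491 UMIs (labelled WT) and 11398 with 121321782 (labelled cKO), and after filtering 10992 and 9086 cells were kept. Each label has a single library, so no test was possible, differences are descriptions of the 2 libraries sequenced, and brackets give exact 95% intervals that cover counting error only. Cells were sorted into 18 classes by marker genes that include no Ms4a gene, called macrophage-like and so on, and 14.94% and 16.34% of cells stayed outside every class. Ythdf2 RNA went against its label. Macrophage-like cells labelled WT had 81.3 CPM (a gene's UMIs per 1000000 UMIs of the class) and those labelled cKO 431 CPM, a ratio of 5.30 (5.05 to 5.56), and in NK-like cells 58.0 and 60.1 CPM. Reads from the 5′ end can lie outside a deleted part, so this level does not check the deletion, and whether the labels were exchanged was not tested. An exchange would turn every direction given here. The NK receptor genes Klra8 and Klra4, from a gene cluster that varies between mouse strains, were found in 41.0% and 0.364% and in 46.2% and 9.83% of NK-like cells, and whether the libraries share a genetic background was not tested. Both genes are among the 7 markers of the NK gate, which summed to 3312 CPM (labelled WT) and 1969 CPM (labelled cKO) in NK-like cells. The gate may therefore choose NK-like cells differently in the 2 libraries, and its part in their ratios was not tested. RNA of other cells was present in every class: a UMI of a C1q gene, made by macrophages, was found in 50% of NK-like cells labelled WT and 18.9% labelled cKO, and a Cd3 or Trac UMI in 46.8% and 52.8% of macrophage-like cells. The libraries shared 43 barcodes.

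The members followed several distributions over the classes, and some of them shared one. Ms4a7 was highest in macrophage-like cells, Ms4a4c, Ms4a6c and Ms4a6d in monocyte-like cells, Ms4a4b in NK-like and CD8 T-like cells and Ms4a1 in B-like cells of both libraries. For Ms4a6d labelled WT, monocyte-like cells (496 CPM) and cells intermediate between monocyte and macrophage (489 CPM) had overlapping intervals. Ms4a6b alone was high in both branches, with CD4 T-like (488 CPM) and monocyte-like cells (480 CPM) at the top in the library labelled WT and CD8 T-like (685 CPM) and CD4 T-like cells (646 CPM) at the top in that labelled cKO. The top intervals overlapped in both libraries. Over 32 profiles (class by library), the log2 levels of Ms4a6c and Ms4a6d went together most closely (Pearson r = 0.96), followed by Ms4a4c and Ms4a6c (0.88). Ms4a4b and Ms4a6b had r = 0.72. The pairs whose upstream sequences are shown were less alike, with 0.041 for Ms4a4c and Ms4a4b and 0.45 for Ms4a6c and Ms4a6b. These profiles share libraries and RNA of other cells, so the r values are descriptions.

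**Figure D1:**
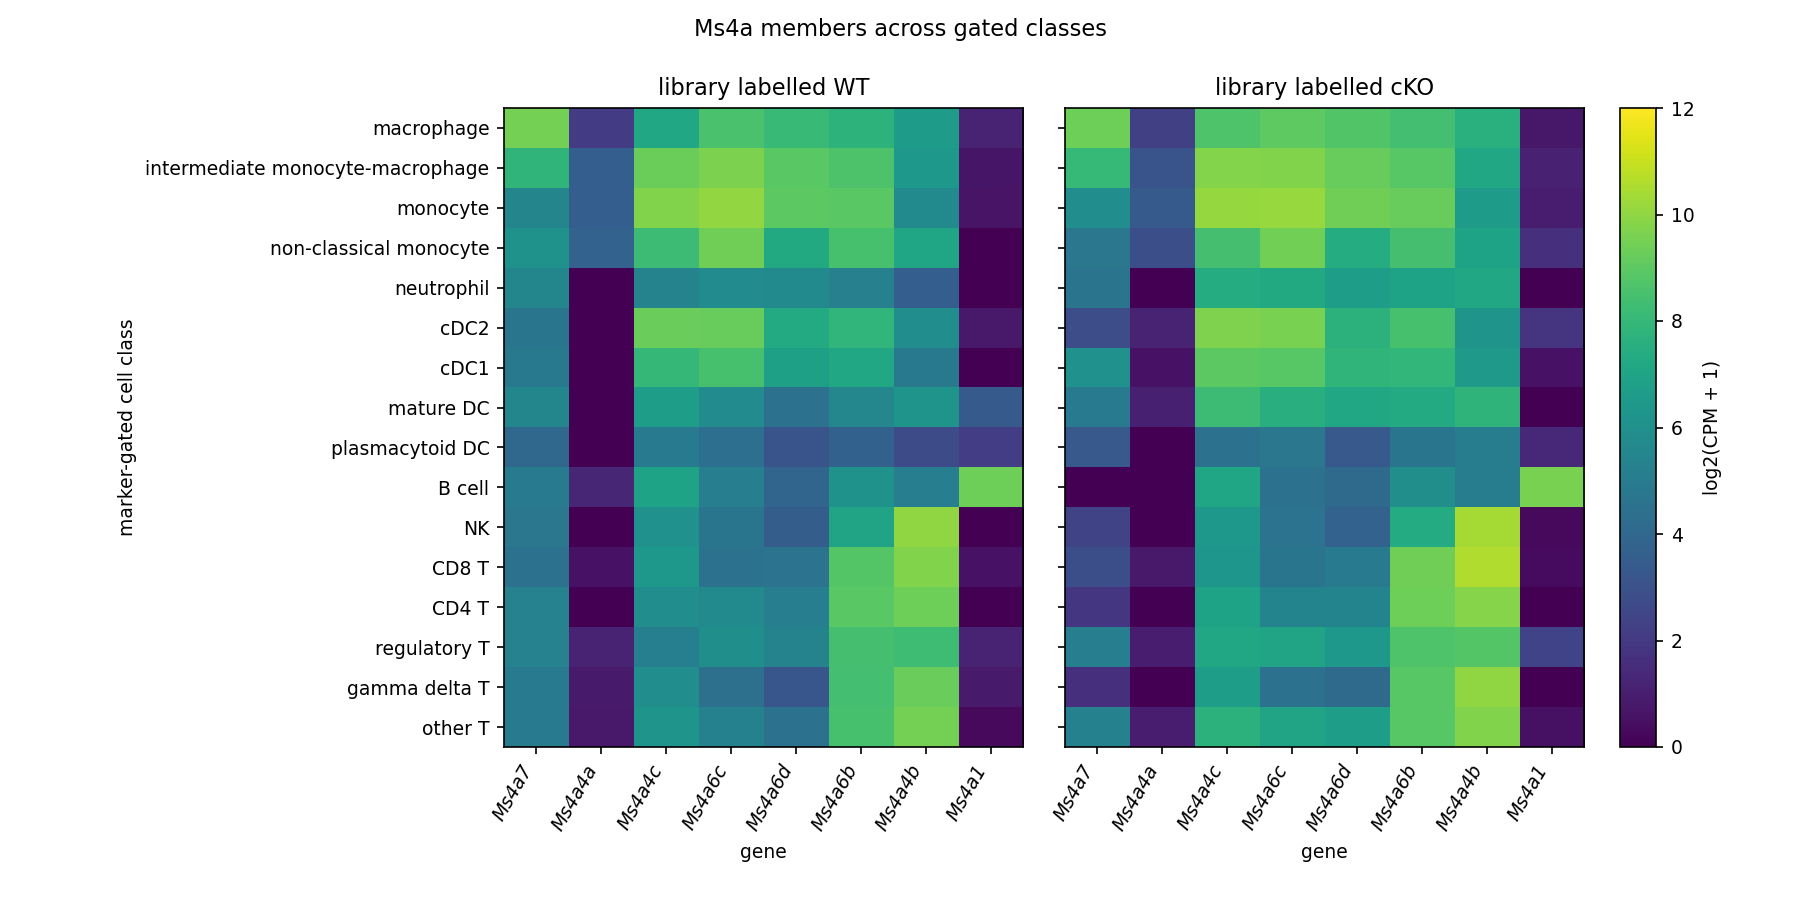
Level of each member (columns) in each marker-gated class (rows) for the library labelled WT (left) and that labelled cKO (right), as log2(CPM + 1) of summed UMIs. Ms4a7 peaks in macrophage-like, Ms4a4c, Ms4a6c and Ms4a6d in monocyte-like, Ms4a4b in NK-like and T-like and Ms4a1 in B-like cells in both panels, with Ms4a6b high in both myeloid and T-like rows.

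Ms4a7 was the macrophage member. Its level in macrophage-like cells was 716 CPM (708 to 723) for the library labelled WT and 658 CPM (639 to 677) for the one labelled cKO. The ratio of 0.919 (0.891 to 0.948) lay within the 1.5-fold used to call a gene higher or lower, and its sign on the log2 scale changed between processing settings. Intermediate monocyte-macrophage cells, whose macrophage and monocyte marker scores were too close to choose, held 234 and 259 CPM, and monocyte-like cells 42.9 and 58.9 CPM. The level in macrophage-like cells was thus 16.7 times that in monocyte-like cells for the label WT and 11.2 times for the label cKO. Macrophage-like cells made up 22.8% of the cells labelled WT and 3.40% of those labelled cKO. Of all Ms4a7 UMIs in kept cells of a named class, 95.2% (32576 of 34209) came from macrophage-like cells under the label WT and 58.5% (4514 of 7713) under the label cKO, where monocyte-like cells gave 23.5%. At a common depth of 2678 UMIs per cell, shallower macrophage-like cells were left out (260 of 2506 labelled WT and 62 of 309 labelled cKO). Of the rest, 75.5% (73.6 to 77.2) and 70.9% (64.8 to 76.4) had an Ms4a7 UMI. The corresponding share in NK-like cells, which should lack the gene, was 4.55% and 0.898% at 2432 UMIs per cell (median depths before thinning 3366 and 5586 UMIs, against 15442 and 16338 in macrophage-like cells).

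Outside macrophage-like cells, Ms4a7 was compared with C1q RNA. The genes closest to it over the 32 profiles were C1qb (r = 0.95), C1qa and Trem2, which are also markers of the macrophage gate. Macrophage-like cells held 9.68 Ms4a7 UMIs per 100 UMIs of C1qa, C1qb and C1qc in the library labelled WT (9.57 to 9.79) and 8.60 in that labelled cKO (8.35 to 8.87). NK-like cells held 11.3 (9.27 to 13.7) and 10.6 (7.37 to 14.8) and CD8 T-like cells 11.9 (9.44 to 14.9) and 11.3 (9.01 to 14.1), near the macrophage ratio. Ms4a7 itself was 25.7 and 4.45 CPM in NK-like cells, 5.78-fold lower in the library labelled cKO (3.98 to 8.57). C1q RNA was 227 and 42.0 CPM there, so both were lower there. Monocyte-like cells held 12.5 (11.4 to 13.8) and 17.9 (17.0 to 18.8) Ms4a7 UMIs per 100 C1q UMIs, above both macrophage values, while their C1q RNA was nearly level at 343 and 329 CPM. Non-classical monocyte-like cells, the vessel-patrolling subset, had 26.6 (18.7 to 37.2) and 18.0 (11.2 to 28.0). Higher ratios were also found in other T-like cells, with 12.6 (10.3 to 15.3) and 16.8 (14.6 to 19.2) at C1q RNA of 231 and 222 CPM. Under the label WT, regulatory T-like cells had 14.8 (11.1 to 19.3), CD4 T-like cells 16.4 (11.4 to 23.1) and mature DC-like cells 23.2 (14.1 to 36.9), so the ratio was not the same in all classes.

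**Figure D2:**
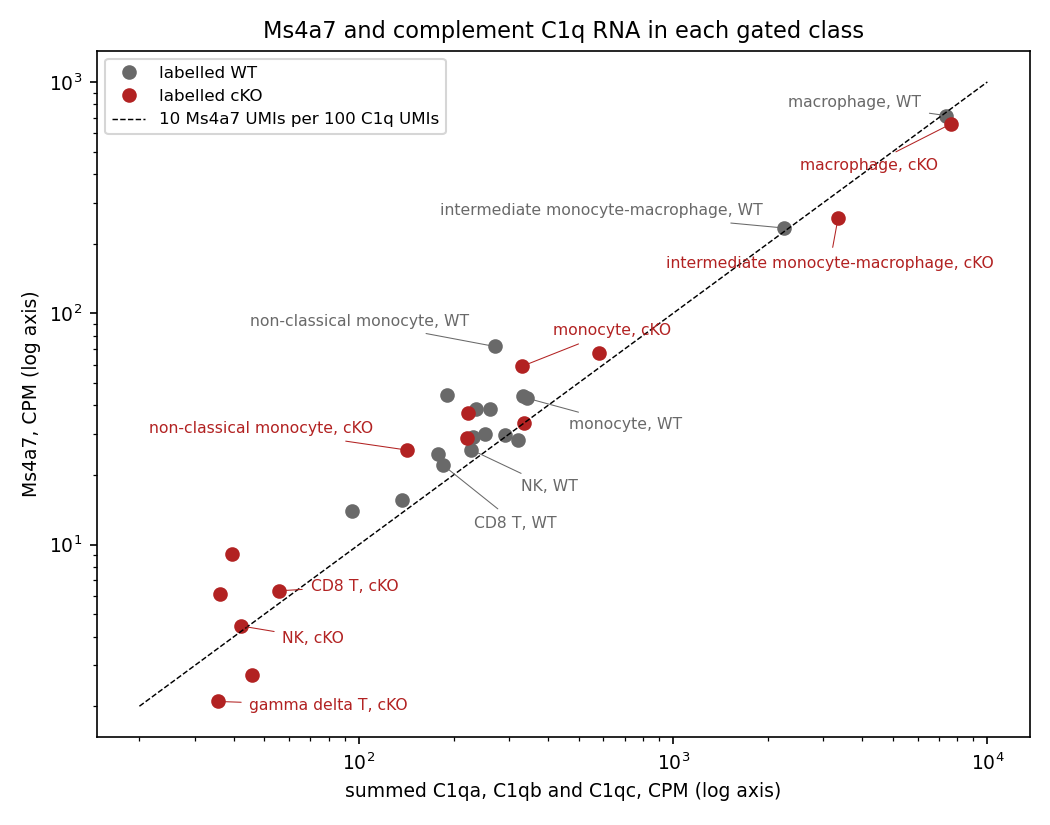
Ms4a7 (vertical, CPM, log axis) against summed C1qa, C1qb and C1qc (horizontal, CPM, log axis), 1 point per class and library with at least 50 cells and 1 Ms4a7 UMI, grey labelled WT and red labelled cKO. NK-like and CD8 T-like points of both libraries lie close to the dashed line of 10 Ms4a7 UMIs per 100 C1q UMIs, and monocyte-like and non-classical monocyte-like points lie above it.

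Ms4a4c was the member that differed most between the libraries in macrophage-like cells. It stood at 141 CPM (138 to 145) under the label WT and at 408 CPM (393 to 423) under the label cKO, a ratio of 2.89 (2.76 to 3.02). In monocyte-like cells, where the gene was highest, it was 851 and 1096 CPM, a ratio of 1.29 (1.26 to 1.32). cDC2-like cells, the dendritic cells that present mainly to CD4 T cells, held 616 and 809 CPM, and non-classical monocyte-like cells 296 and 357 CPM. At 2678 UMIs per cell in both libraries, 27.6% (25.7 to 29.5) and 58.7% (52.3 to 64.9) of macrophage-like cells had an Ms4a4c UMI. Monocyte-like cells, thinned to 5226 UMIs, had 93.2% and 94.1%, and NK-like cells, thinned to 2432 UMIs, 11.8% and 12.9%. These depths differ between classes, so the shares are compared between libraries only.

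The Ms4a6 copies of the myeloid branch differed less. Ms4a6d held 282 and 432 CPM in macrophage-like cells, a ratio of 1.53 (1.47 to 1.60), and 496 and 678 CPM in monocyte-like cells (1.37, 1.33 to 1.41). Ms4a6c held 372 and 523 CPM in macrophage-like cells (1.41, 1.36 to 1.46), which is under the 1.5-fold, and 1050 and 1133 CPM in monocyte-like cells (1.08, 1.06 to 1.10). Both were higher in monocyte-like than in macrophage-like cells of either library. The share of macrophage-like cells with an Ms4a6d UMI was 51.8% and 70.0% at matched depth, with shallower cells left out. Before thinning it was 86.0% and 84.8% of all cells of the class. Ms4a4a was rare: monocyte-like cells had 11.1 and 9.47 CPM, and non-classical monocyte-like cells 12.8 and 6.41 CPM, the last from 8 and 6 UMIs with an interval of 0.143 to 1.65 for the ratio. In macrophage-like cells it was 3.38 and 3.79 CPM, so that the marker gate with the most C1q RNA was not the class with the most Ms4a4a.

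In macrophage-like cells 4 of the 6 members measured (at least 10 CPM in either library) were at least 1.5-fold higher in the library labelled cKO and 0 were lower, where 6.5% of 8059 genes were higher and 4.53% lower. They were Ms4a4c, Ms4a4b (94.1 and 193 CPM; 2.05, 1.93 to 2.18), Ms4a6b (214 and 338 CPM; 1.58, 1.51 to 1.65) and Ms4a6d. With a stricter gate, with every cell weighted equally and with matched marker score, only 2 of the 4, Ms4a4c and Ms4a4b, stayed past 1.5-fold. The median log2 ratio of the 6 was 0.64, and that of all genes measured was -0.03. Monocyte marker RNA moved the same way: its 6 genes summed to 792 and 2185 CPM in macrophage-like cells, with a median over cells of 2.98 and 16.2 per 10000 UMIs, while the 7 macrophage markers summed to 13130 and 11000 CPM. T cell marker RNA, 6 genes, summed to 370 and 496 CPM. The monocyte set was not specific to monocytes, since it summed to 1668 and 2728 CPM in CD8 T-like cells. In plasmacytoid DC-like cells it summed to 6326 and 6500 CPM. In macrophage-like cells without a Cd3 or Trac UMI (1334 and 146 cells), Ms4a4b, a T and NK gene, was 23.0 and 62.0 CPM. Ms4a4c was 145 and 552 CPM there, and the ratios of both genes were larger than in all macrophage-like cells. Ms4a6b was 186.5 and 327.5 CPM in the same cells, Ms4a6d 318.8 and 543.9 CPM and Ms4a6c 399.8 and 645.9 CPM, so that Ms4a6c also passed 1.5-fold. Ms4a7 stayed nearly level there, with 821.5 and 810.6 CPM. What part the marker RNA has in these ratios was not tested.

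The same comparison was made at matched position between monocyte and macrophage, since the gates cut a continuous score; 194 and 75 macrophage-like cells lay near the cut. Monocyte-like, intermediate and macrophage-like cells were divided into 4 bins of the macrophage minus monocyte score, from most monocyte (bin 1; 738 cells labelled WT and 975 labelled cKO) to most macrophage (bin 4; 1612 and 101 cells). Ms4a7 went along the score from 26.2 to 851 CPM in the library labelled WT and from 25.8 to 1041 CPM in that labelled cKO, and its ratio crossed 1, with 0.828 (0.794 to 0.863) in bin 3 and 1.22 (1.17 to 1.28) in bin 4. Ms4a4c went the other way, from 978 to 107 CPM and from 1193 to 216 CPM. Its ratio was 1.22 and 1.31 in bins 1 and 2, 2.67 (2.57 to 2.77) in bin 3 and 2.01 (1.82 to 2.22) in bin 4. Bin 3 held 706 CPM in the library labelled cKO against 265 in that labelled WT, so that Ms4a4c stayed high further along the score in the library labelled cKO. Within bin 3, the monocyte marker Ly6c2 was also higher (449 and 908 CPM) and the macrophage marker Mrc1 lower (391 and 153 CPM), so cells of this bin still differed in marker RNA. Ms4a6b (1.71), Ms4a6c (1.68) and Ms4a6d (1.75) also had their largest ratios in bin 3 and lay at 1.23, 1.18 and 1.40 in bin 4, where Ms4a4c stayed at 2.01. Bin 4 was not matched in marker RNA either, with Ly6c2 at 144 and 248 CPM, Mrc1 at 605 and 257 CPM and C1qa at 3328 and 4778 CPM. Of the members measured in each bin, 1 of 7 was past 1.5-fold higher in bins 1 and 2 (Ms4a4b), 5 of 6 in bin 3 (Ms4a4b, Ms4a4c, Ms4a6b, Ms4a6c and Ms4a6d) and 2 of 6 in bin 4 (Ms4a4b and Ms4a4c), and 0 were lower in any bin. Of all genes, 4.08%, 4.67%, 6.32% and 4.88% were higher in bins 1 to 4, and 3.68%, 2.65%, 6.41% and 4.98% were lower.

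**Figure D3:**
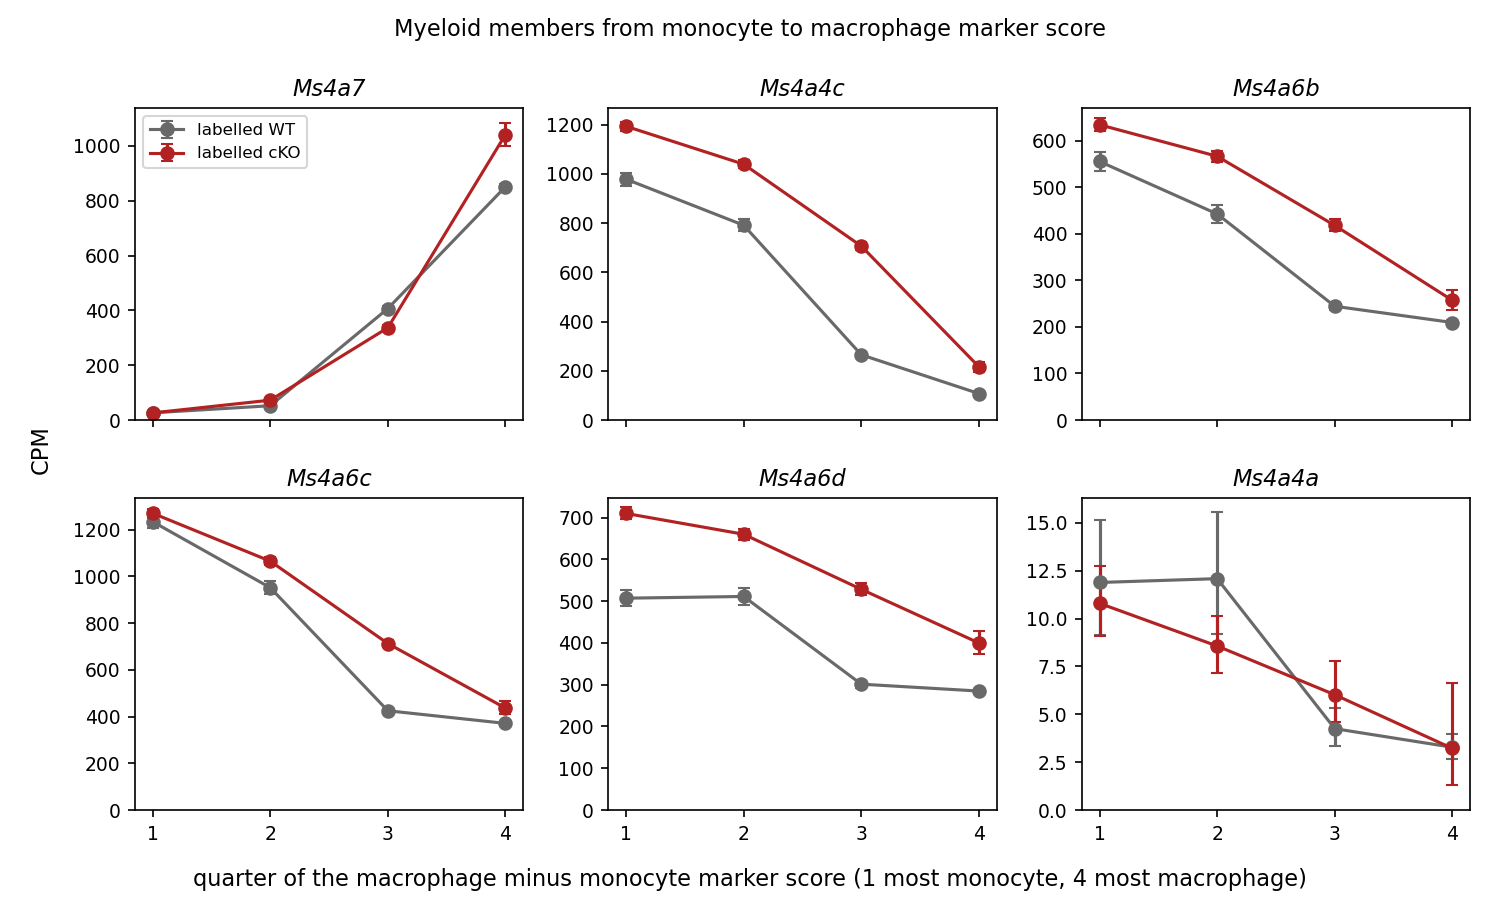
Level in CPM (vertical) of 6 members in the 4 bins of the macrophage minus monocyte marker score (horizontal), grey labelled WT and red labelled cKO, with 95% Poisson intervals of counting error as bars. Ms4a7 rises to 851 and 1041 CPM in bin 4, Ms4a4c, Ms4a6b and Ms4a6c fall along the score in both libraries, and the Ms4a4c lines are farthest apart in bin 3.

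Cells often held several members at once. Counted here were the 6 members Ms4a4a, Ms4a4c, Ms4a6b, Ms4a6c, Ms4a6d and Ms4a7. Of these 6, a macrophage-like cell thinned to 2678 UMIs held 2.53 on average in the library labelled WT and 3.26 in that labelled cKO. At least 4 were held by 22.0% and 42.9% of these cells. Monocyte-like cells, thinned to 5226 UMIs, held 3.72 and 3.87. Depths differ between the classes, so these means are compared within a class only.

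In the other myeloid classes fewer members passed 1.5-fold. Monocyte-like cells had 1 of 7 measured members higher (Ms4a4b, 51.7 and 94.9 CPM) and 0 lower, against 4.03% and 1.76% of 7228 genes. T cell marker RNA was 61.0 and 130 CPM in these cells, and without cells holding a Cd3 or Trac UMI Ms4a4b was 38.1 and 57.0 CPM, which is no longer past 1.5-fold on the log2(CPM + 1) scale. Intermediate cells likewise had 1 of 7 higher (Ms4a4b) and 0 lower, against 6.57% and 6.14% of genes. Without cells holding a T cell UMI, Ms4a4b in intermediate cells was 42.1 and 43.3 CPM, and Ms4a4c was past 1.5-fold in its place (662 and 1067 CPM). Non-classical monocyte-like cells had 0 of 7 higher and 2 lower, Ms4a4a and Ms4a7, against 12.4% and 11.5%. Ms4a7 there was 71.9 and 25.6 CPM from 45 and 24 UMIs, and 30.1 and 32.9 CPM once cells with a T cell UMI were left out. cDC2-like cells had 1 of 6 higher (Ms4a6b, 236 and 361 CPM) and 1 lower (Ms4a7, 24.6 and 6.14 CPM), against 6.39% and 10.5%, and the higher count became 0 in 4 of the alternatives.

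Ms4a4b was the T and NK member. The level in NK-like cells was 1028 CPM (999 to 1058) for the library labelled WT and 1353 CPM (1328 to 1378) for the one labelled cKO, a ratio of 1.32 (1.27 to 1.36). CD8 T-like cells held 845 CPM (817 to 874) and 1509 CPM (1489 to 1529), a ratio of 1.79 (1.72 to 1.85). The order of the top classes was therefore exchanged, with NK-like cells first in the library labelled WT and CD8 T-like cells first in that labelled cKO, and the intervals of these classes did not overlap in either library. Gamma delta T-like cells had 605 and 1018 CPM, CD4 T-like cells 655 and 909, other T-like cells 710 and 860, and regulatory T-like cells the lowest T cell level with 306 and 439 CPM. The ratio was above 1 in each of these 6 classes. At 3429 UMIs per cell, 133 of 672 and 68 of 1597 CD8 T-like cells were shallower and left out. Of the rest, 89.0% (86.1 to 91.6) and 96.4% (95.3 to 97.3) held an Ms4a4b UMI. The share among B-like cells, which should lack it, was 4.78% and 4.47% at 1906 UMIs per cell, with median depths of 2260 and 3496 UMIs against 4823 and 7133. Its closest genes were Il2rb, the shared receptor chain of IL-2 and IL-15 (r = 0.98), Skap1 and Lck, both of the T cell receptor pathway. Its partner Tnfrsf18 was nearly level, with 138 and 135 CPM in CD8 T-like and 783 and 764 CPM in regulatory T-like cells.

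CD8 T-like cells had 2 of 6 measured members higher, Ms4a4b and Ms4a6b (447 and 685 CPM; 1.53, 1.46 to 1.61), and 1 lower, Ms4a7 (22.1 and 6.31 CPM), against 6.53% and 4.24% of 7809 genes. Ms4a6b fell short of 1.5-fold with median-of-ratios scaling. Ms4a4c stood at 83.2 and 77.0 CPM in these cells.

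Ms4a6b followed neither branch alone. It was above 1.5-fold in macrophage-like, cDC2-like and CD8 T-like cells, and lay at 1.22 (1.18 to 1.25) in monocyte-like, 1.33 (1.18 to 1.49) in CD4 T-like, 1.28 (1.16 to 1.41) in NK-like and 0.973 (0.819 to 1.16) in non-classical monocyte-like cells. The genes whose profiles were most like it were Ifi206 (r = 0.93) and Ifi213, both of the interferon-inducible Ifi200 cluster, and Hopx. In CD8 T-like, monocyte-like and NK-like cells the medians of all measured members were 0.27, 0.36 and 0.27 (log2) and those of all genes 0.06, -0.09 and -0.06. Non-classical monocyte-like and B-like cells went the other way, with members at -0.04 and -0.09 and all genes at -0.01 and -0.05. In the remaining classes compared the median of the members lay above that of all genes.

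**Figure D4:**
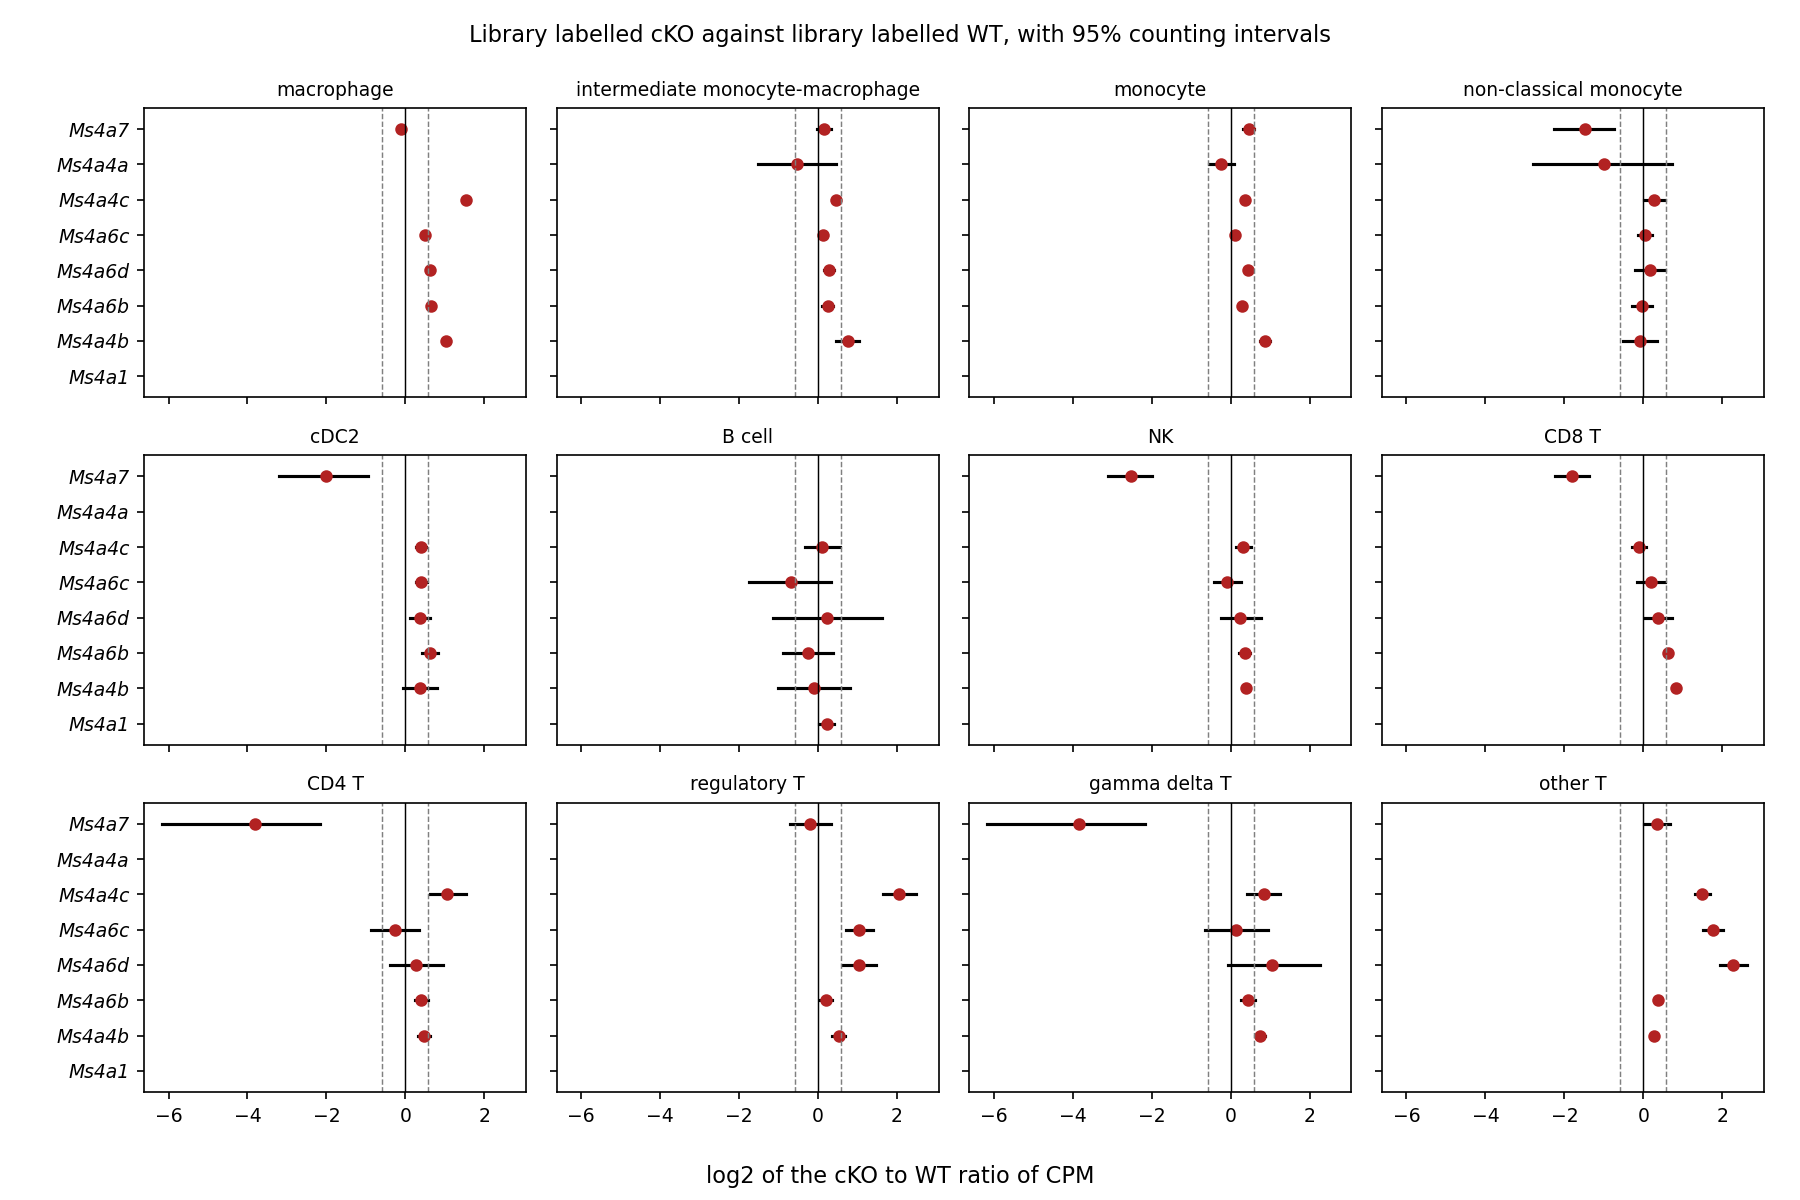
Log2 of the ratio of CPM, library labelled cKO over that labelled WT (horizontal), for each member (vertical) in the 12 classes that reached 100 cells in both libraries. Points are ratios of members at 10 CPM or more with UMIs in both libraries, bars are 95% counting intervals (shorter than the point where hidden), and dashed lines mark 1.5-fold. Ms4a4c and Ms4a4b lie right of the line in macrophage-like cells, Ms4a4b and Ms4a6b in CD8 T-like cells, and Ms4a7 lies left of it in 6 of the 12 panels.

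Myeloid members were also found at low levels in T-like classes, with the largest upward ratios among the members measured in the 12 classes compared. Regulatory T-like cells had 3 of 6 higher and 0 lower, against 7.48% and 5.22% of 8213 genes: Ms4a4c with 35.4 and 147 CPM (4.15, 3.12 to 5.61), Ms4a6c with 62.7 and 129 CPM (2.06, 1.63 to 2.61) and Ms4a6d with 40.4 and 83.2 CPM (2.06, 1.54 to 2.78). Other T-like cells had the same 3 of 6 higher and 0 lower, against 9.28% and 4.42% of 8124 genes, with Ms4a6d at 21.9 and 106 CPM (4.86, 3.88 to 6.14). Ythdf2 moved with them, at 47.8 and 108 CPM in regulatory T-like cells and 57.0 and 117 CPM in other T-like cells. Without cells holding a UMI of C1qa, C1qb, C1qc, Csf1r, Vcan, Chil3 or Hp (109 and 135 regulatory T-like cells left), Ms4a4c was 14.4 and 16.7 CPM from 6 and 16 UMIs, Ms4a6c 21.6 and 17.8 and Ms4a6d 19.2 and 15.7. In other T-like cells chosen the same way (508 and 428) Ms4a6d was 14.3 and 19.4 CPM and Ms4a4c 63.3 and 112 CPM. In cells free of these UMIs none of the 3 members was past 1.5-fold in regulatory T-like cells, while Ms4a4c stayed past it in other T-like cells. Ms4a7 was lower in both, with 16.8 and 2.09 CPM (7 and 2 UMIs) in regulatory T-like and 16.0 and 5.44 CPM (28 and 16 UMIs) in other T-like cells.

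The remaining lymphoid classes were mixed. Gamma delta T-like cells had 3 of 6 higher (Ms4a4b, Ms4a4c and Ms4a6d, the last from 10 and 24 UMIs) and 1 lower (Ms4a7), against 6.82% and 12.2%. CD4 T-like cells had 1 of 6 higher, Ms4a4c with 58.2 and 122 CPM (2.09, 1.53 to 2.90), and 1 lower, Ms4a7 with 39 and 3 UMIs (ratio 0.0709, 0.0140 to 0.223), against 7.81% and 11.0%. In CD4 T-like cells without myeloid UMIs, Ms4a4c was 50.5 and 74.7 CPM, under 1.5-fold, and Ms4a6c was past it from 8 and 26 UMIs. NK-like cells had 0 of 6 higher and 1 lower, again Ms4a7, against 1.16% and 3.0% of 7761 genes. Over the 12 classes, 76 member by class values were measured, of which 19 were higher and 9 lower, and 7 of the 9 lower were Ms4a7. Of all genes, from 1.16% (NK-like) to 12.4% (non-classical monocyte-like) were higher in a class, and from 1.76% (monocyte-like) to 13.3% (B-like) were lower. The counts of members include low values that changed when cells holding RNA of another lineage were left out.

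Ms4a1 marked the B-like cells. Its level there was 660 CPM (601 to 722) for the library labelled WT and 769 CPM (704 to 839) for that labelled cKO, a ratio of 1.17 (1.03 to 1.33). Over the processing alternatives its log2 ratio ranged from -0.054 (without cells holding myeloid UMIs) to 0.29, so its direction depends on the setting. At 1906 UMIs per cell, 58 of 288 and 3 of 182 B-like cells were shallower and left out. Of the rest, 61.7% (55.1 to 68.1) and 65.4% (57.9 to 72.3) held an Ms4a1 UMI. The shares in macrophage-like cells, at 2678 UMIs per cell, were 0.401% and 0.405%. Outside B-like cells the level was 14.0 CPM in the 33 mast cell and basophil-like cells labelled WT, from 1 UMI. It was 9.62 CPM (3.12 to 22.4) in mature DC-like cells labelled WT, from 5 UMIs. Every other class of either library had 4.26 CPM or less. Ms4a1 went with Fcer2a, the low-affinity IgE receptor CD23 (r = 0.95), and with the gate markers Fcmr and Pax5. The coreceptor gene Cd22 was 218 and 228 CPM there. B-like cells had 0 of 7 members higher and 2 lower, against 10.2% and 13.3% of 7626 genes: Ms4a6c with 24 and 14 UMIs, and Ms4a7 with 21 and 0 UMIs, at least 4.85-fold lower by the exact interval. Without cells holding myeloid UMIs, Ms4a6c was nearly level (23.9 and 22.0 CPM). C1q RNA in these cells was 291 and 59.4 CPM.

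Of the 11 Ms4a genes outside the members, 2 reached 10 CPM in a class of at least 50 cells and 3 had no UMI. Ms4a8a was 18.1 and 39.1 CPM in monocyte-like cells (2.15, 1.86 to 2.51), and Ms4a14 in macrophage-like cells was 22.1 and 24.8 CPM (1.12, 0.946 to 1.32). Ms4a2, the beta chain of the IgE receptor, was 461 and 332 CPM in the 33 and 11 mast cell and basophil-like cells (33 and 23 UMIs) and at most 1.6 CPM elsewhere. Ms4a3, a gene of granulocyte and monocyte progenitors, had 24 and 22 UMIs in 3 and 8 kept cells. Its highest level in a class of at least 50 cells was 2.02 CPM, in monocyte-like cells labelled WT (23 UMIs). Those labelled cKO had 0.259 CPM (8 UMIs). Tmem176a and Tmem176b, relatives with the same membrane topology, were 54.7 and 62.8 CPM and 80.4 and 85.9 CPM in monocyte-like cells. Trem2, the lipid receptor linked to the human locus, was 554 and 392 CPM in macrophage-like cells, a ratio of 0.708 (0.680 to 0.737), lower than that of Ms4a7 in the same cells. Of the 8 genes measured there from a list of 12 partners and relatives of the members, 1 was higher, Cd40, the receptor for T cell help (27.8 and 66.1 CPM), and 1 lower, the B cell receptor chain Cd79b (31.1 and 18.2 CPM). Profiles of the remaining members were closest to Pnp for Ms4a4c (r = 0.91), Pid1 for Ms4a6c (0.97), Fcgr1, the high-affinity IgG receptor, for Ms4a6d (0.98) and the monocyte gate marker Chil3 for Ms4a4a (0.85).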

How the data were processed

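CD45+ tumour leukocytes of 1 library labelled WT and 1 labelled Ythdf2 cKO were measured. What the authors deposited are raw UMI counts for each gene in each barcode; per the submitters' processing notes the authors used Cell Ranger 5.0.1, Seurat 4.0.4 and mm10, and per the file headers cellranger 5.0.0. Counting options are not stated. Libraries held 128952491 and 121321782 UMIs. Barcodes with under 200 genes or over 10% mitochondrial UMIs were removed. Scrublet (scanpy 1.11.5) called only 2 and 1 barcodes by its automatic threshold, so the highest scores at 0.8% per 1000 cells (1187 and 779 barcodes) were removed.

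A cell's score for a marker set was the mean over markers of its level divided by the 95th percentile of nonzero levels, capped at 1. The top score had to reach 0.1 and 1.5 times the next (stricter 2, looser 1.2); a cell near the cut lay between 1.2 and 2. Monocyte and macrophage scores failing the margin gave intermediate cells. T-like cells were split by Cd8a or Cd8b1, Foxp3, Cd4, and Trdc or at least 2 Tcrg-C1 UMIs. Floor and margin were set on the markers, with Ms4a rows not read. A plasma cell set was dropped after marker values were seen.

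UMIs were summed per class and library. Log2 ratios used a pseudocount of 1 CPM, calls 1.5-fold, and genes of at least 10 CPM in either library; 12 classes had at least 100 cells in each library. Intervals are exact Poisson, exact conditional (ratios) and Clopper-Pearson (shares), at 95%. For shares, cells were thinned to the lower library's 20th percentile depth. Cells below that depth were left out of all thinned values, in parts that differed between the libraries. The ratio scripts were tested on simulated data. Likeness is Pearson's r of log2(CPM + 1) over 32 profiles and 6047 genes reaching 50 CPM, naming the top 3 genes per member. Named are all members, the other Ms4a genes, listed partners and the likeness genes. Python 3.11.15, numpy 2.4.6, scipy 1.17.1 and pandas 2.3.3 were used.

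Members and lists were chosen with earlier results of these data known. Chosen after values were seen were the ratios to C1q, the alternative without cells holding RNA of another lineage, the rule for results given a closer look (a first version found none), and, after the letters were seen, the printed promoter pairs and the motifs GAAANNGAA and GGAAGT. Alternatives are in the closing section. Some planned results are not reported here.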

Additional observations from a re-analysis of the deposited data

Results flagged for a closer look

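Ms4a7 differed between the libraries in opposite directions in 2 classes, each with an interval clear of 1. Its log2 ratio, library labelled cKO over that labelled WT, was 0.45 in monocyte-like cells (490 and 1816 UMIs) and -2.29 in NK-like cells (117 and 38 UMIs). The difference between these classes was not tested, since each label has 1 library. In monocyte-like cells C1q RNA was 343 and 329 CPM. It was 227 and 42.0 CPM in NK-like cells, and its part in the ratios was not tested. Ms4a7 stood at 12.5 and 17.9 UMIs per 100 C1q UMIs in monocyte-like cells and at 11.3 and 10.6 in NK-like cells.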

How the results depend on the processing

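No paired analysis was possible because each label has 1 library. Of 28 called ratios, 23 kept their sign in every alternative run for them and 12 also stayed past 1.5-fold, among 12 alternatives in all. Counts of members that moved by over 1.5 times were as follows, with the cause not tested beyond what each setting changes. In macrophage-like cells the 4 higher became 2 with the stricter gate, with cells weighted equally and with matched score bins. In intermediate cells the 1 higher became 0 with doublets kept and 2 with thinned cells, and the 0 lower became 1 with thinned cells. Without cells holding RNA of another lineage, the 1 higher in monocyte-like cells became 0, the 3 higher in regulatory T-like cells 0 and the 3 higher in other T-like cells 1. In non-classical monocyte-like cells the 0 higher became 1 with no filter on low values and without cells of other-lineage RNA, and the 2 lower became 1 with that setting, with equal weights and with a pseudocount of 10 CPM. In cDC2-like cells the 1 higher became 0 with doublets kept, the looser gate, thinned cells and the other-lineage setting, 2 with the stricter gate and 3 with no filter. In B-like cells the 0 higher became 1 with 5% mitochondrial UMIs, the stricter gate and the other-lineage setting, and the 2 lower became 1 with the looser gate, equal weights, the pseudocount of 10 CPM and the other-lineage setting. In CD8 T-like cells the 2 higher became 1 with median-of-ratios scaling. The 0 lower in regulatory T-like and in other T-like cells became 1 with equal weights, thinned cells and the other-lineage setting. In gamma delta T-like cells the 1 lower became 2 with the looser gate and 3 with no filter.

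Called log2 ratios that changed sign were Ms4a4a in non-classical monocyte-like cells (0.041 with thinned cells), Ms4a7 there (0.13), Ms4a6c (-0.26) and Ms4a6d (-0.27) in regulatory T-like cells without other-lineage RNA, and Ms4a6d in gamma delta T-like cells (-0.62 with the looser gate). The difference in the share of macrophage-like cells with an Ms4a6d UMI was -1.24 percentage points in unthinned cells. In macrophage-like cells the log2 ratio ranged over the alternatives from 1.14 to 1.93 for Ms4a4c, from 0.78 to 1.39 for Ms4a4b and from -0.25 to 0.25 for Ms4a7, whose sign therefore depends on the setting. In CD8 T-like cells it ranged from 0.77 to 0.92 for Ms4a4b. Depth limits Ms4a4a, with 346 and 430 UMIs in all kept cells, and Ms4a7 outside myeloid cells.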
